A study of Mus musculus with 4 samples.

Results

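The vomeronasal type 2 receptor genes of the mouse, named Vmn2r followed by a number, were followed in mRNA-seq of mouse embryonic stem cells (mESCs). Every gene of the deposited table whose Ensembl identifier maps to such a symbol was taken and pseudogenes (Vmn2r-ps) were left out, which gave 117 genes of the 37310 in the table. All 117 are annotated as protein coding. The family was chosen by a measured value, the fold change of Vmn2r12 between the 2 groups, which was the highest of the table, so that the differences of its members between the groups are given as a description, and counts of members past a threshold support nothing.

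The libraries came from JM8 cells, an mESC line of the C57BL6/N strain, kept without feeder cells as naïve 2i mESCs in 2i + LIF medium, which holds inhibitors of MAPK and of glycogen synthase kinase 3 together with the cytokine LIF. There were 2 libraries labelled wild-type and 2 labelled *Bmal1*−/−. The *Bmal1*−/− cells are 1 clone of that line with CRISPR-made lesions in both alleles of Bmal1, a transcription factor of the molecular clock, so that a difference between clones and a difference between genotypes cannot be told apart. Per library, 21504265 to 23329034 reads fell on genes.

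The gene Arntl, which encodes Bmal1, stood at 678 and 733 (normalized values) in wild-type mESCs and of 556 and 590 in those labelled *Bmal1*−/− (log2 fold change -0.30, SE 0.07, adjusted p = 0.0011 by limma, but 0.15 with no filter on low values). Its mRNA was present in every library, and its level therefore does not identify the genotypes. All 6 mESC markers examined (Pou5f1, Nanog, Zfp42, Esrrb, Tfcp2l1 and Dppa5a) were detected in every library and differed by log2 fold changes between -0.14 and 0.40. Over all genes, 1046 of 14510 tested (7.21%) changed by more than 2-fold at an adjusted p under 0.05, with 835 (5.75% of those tested) rising and 211 (1.45%) falling in the knockout-labelled libraries. Under quantile normalization 590 rose and 426 fell.

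Type 2 vomeronasal receptors are G protein-coupled receptors of family C, with a long extracellular domain that binds the ligand. They are known from the sensory neurons of the basal layer of the vomeronasal organ, where they detect peptide and protein pheromones and signal through the G protein Gαo, a phospholipase C and the cation channel Trpc2. A basal neuron typically transcribes one or few of these genes, often together with a member of the Vmn2r1 to Vmn2r7 subfamily and with nonclassical major histocompatibility molecules of the H2-M family. The genes lie in tandem clusters of close copies, and neighbouring copies can be nearly identical in sequence.

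That likeness decides how well a 75-base read can be placed, so the sequence is shown before the values. Vmn2r12 (ENSMUSG00000090688) lies on the minus strand of chromosome 5, at chr5:109514868-109526883 of mm9, has 6 exons with a coding length of 2496 bases, and overlaps no other annotated gene. Its annotated model starts at the start codon. In the family, 100 of the 117 models have a length that is a multiple of 3, while those of Vmn2r84 (3034 bases) and Vmn2r94 (2515 bases) are longer than their coding sequence, so levels per length are given per annotated exon length. The stretch from coding base 301 to 375, in exon 2 (chr5:109521890-109521964), occurs 1 time in the genome. It is shown beside the aligned bases of the copies closest to Vmn2r12 in protein sequence, to show how these copies differ over the length of a read. Capitals mark the bases that differ from Vmn2r12.
Vmn2r12: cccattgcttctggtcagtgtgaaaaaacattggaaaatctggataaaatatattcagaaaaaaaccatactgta
Vmn2r13: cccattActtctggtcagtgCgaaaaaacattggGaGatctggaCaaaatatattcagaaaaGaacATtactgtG
Vmn2r10: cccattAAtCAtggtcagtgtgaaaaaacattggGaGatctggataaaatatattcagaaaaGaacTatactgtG
Vmn2r15: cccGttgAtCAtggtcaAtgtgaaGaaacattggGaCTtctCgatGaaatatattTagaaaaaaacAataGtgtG
Over these 75 bases Vmn2r13 and Vmn2r10 each differed from Vmn2r12 at 9 bases and Vmn2r15 at 15. Over the whole coding sequence Vmn2r13 was 93.9% identical to Vmn2r12, Vmn2r10 91.3%, Vmn2r15 90.9%, Vmn2r14 90.8% and Vmn2r8 89.2%.

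Most of the receptor genes gave no reads. Of the 117 genes, 97 had 0 reads in all 4 libraries, which allows up to 3 reads (the one-sided 95% limit for a count of 0), or a normalized value of 2.82 to 3.19, per library. A further 14 had at most 1 to 3 reads in any library, and 6 had more than 3: Vmn2r12, Vmn2r84, Vmn2r94, Vmn2r1, Vmn2r24 and Vmn2r3. Thus 5.13% of the family had more than 3 reads in a library, against 48.4% of all genes of the table. Among the low genes, Vmn2r79 had 1 and 0 reads in wild-type mESCs and 3 and 0 in those labelled *Bmal1*−/−, Vmn2r85 had 0 and 2 against 1 and 1, Vmn2r52 had 0 and 0 against 0 and 2, and the other 11 had no more than 1 read in any library. These levels are at the limit of detection, and no difference between the groups was detectable in them.

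**Figure D1:**
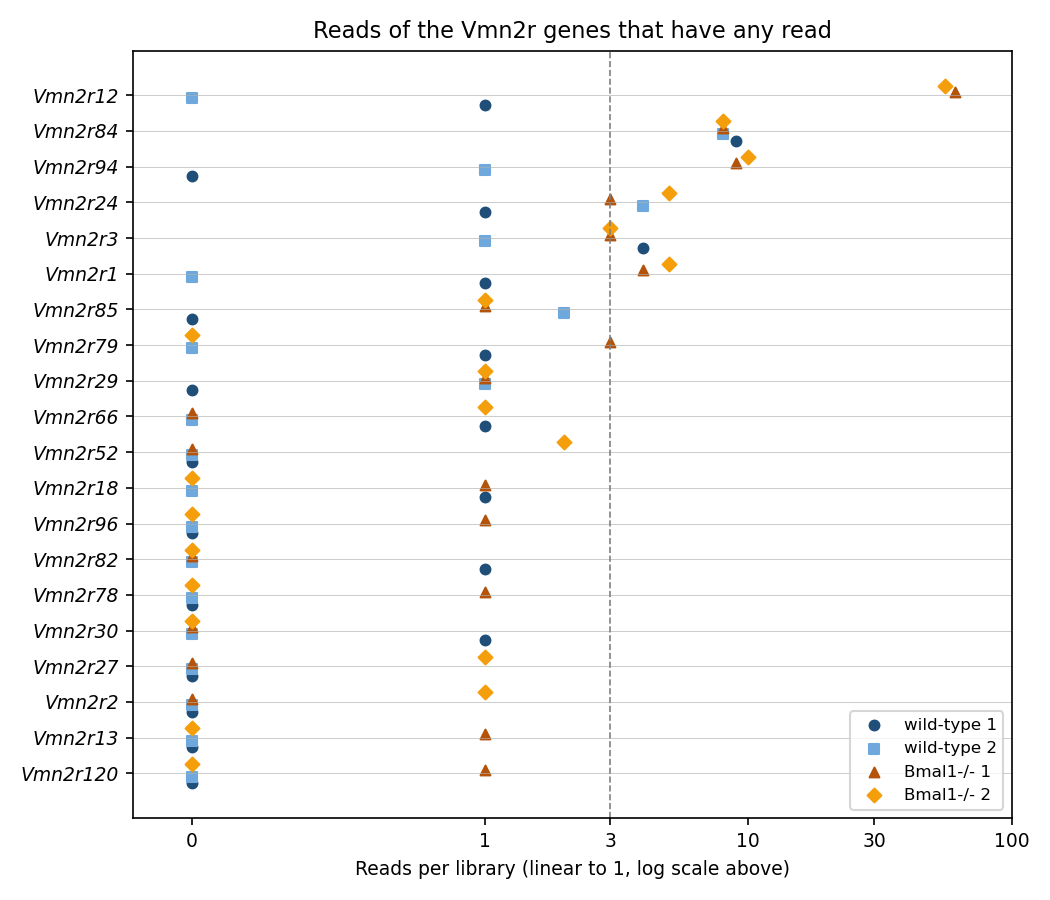
Reads in each library (horizontal axis, linear up to 1 and logarithmic above) of the 20 Vmn2r genes with any read, 1 point per library, with a small vertical offset to separate the libraries. The dashed line marks 3 reads, and Vmn2r12 stands apart with 61 and 56 reads in the 2 libraries labelled *Bmal1*−/− against 1 and 0.

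Vmn2r12 had 1 and 0 reads in wild-type mESCs and 61 and 56 reads in the libraries labelled *Bmal1*−/−. The corresponding normalized values were 1.05 and 0 against 57.3 and 53.4, so that both libraries labelled *Bmal1*−/− were high, both wild-type libraries were at the limit of detection, and the groups did not overlap. The mean in the libraries labelled *Bmal1*−/− was 55.4 ± 2.76 (SD, n = 2). The ratio of the normalized reads was 105, with a 95% exact interval of 18.4 to 4169 that covers counting error only and is this wide because it rests on 1 wild-type read. On the log2(value + 1) scale the difference was 5.30, which became 5.82 when wild-type replicate 1 was left out and 4.78 when replicate 2 was. This contrast chose the gene, and these values are its description.

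The level reached by Vmn2r12 was modest. Per length, it was 1.05 and 0.975 RPKM (reads scaled to the annotated exon length in kb and to the reads on genes) in the libraries labelled *Bmal1*−/−, a mean of 1.01 ± 0.05 (SD, n = 2), and 0.0184 and 0 in the wild-type libraries. That level was above that of 68.2% and 67.7% of the genes of the table in the respective libraries. As the libraries are from bulk cultures, a change in the number of cells that transcribe the gene and a change in the RNA per cell cannot be told apart.

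Few genes of the table went from at most 1 read to this many. With no more than 1 wild-type read over both libraries, 30 genes had at least 10 reads in each library labelled *Bmal1*−/−, 4 had at least 20 (Gm10526, Gm12724, Gm9758 and Vmn2r12) and 1 had at least 50, which was Vmn2r12. In the opposite direction no gene met any of the 3 thresholds. The thresholds were chosen after the values had been seen, and Vmn2r12 had been chosen for its fold change, so its place among these genes is no support for that difference.

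Vmn2r94 showed the next largest difference in the family, at a much lower level. It had 0 and 1 reads in wild-type mESCs and 9 and 10 in those labelled *Bmal1*−/−, a ratio of 17.0 with a 95% exact interval of 2.70 to 706. Per length this was 0.153 and 0.173 RPKM in the libraries labelled *Bmal1*−/−, against 0 and 0.0185. Vmn2r94 (chr17:18380534-18414530, minus strand) belongs to the largest cluster of the family, of 28 genes on chromosome 17, in which 1 further gene had a read.

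Vmn2r84, in contrast, was present at nearly the same low level in every library. It had 9 and 8 reads in wild-type mESCs and 8 and 8 in those labelled *Bmal1*−/−, a ratio of 0.842 with an interval of 0.398 to 1.77. Per length it stood at 0.136 and 0.123 RPKM in wild-type mESCs and at 0.113 and 0.115 in the others. In the wild-type libraries Vmn2r84 was thus the most highly counted receptor of the family, with 9 of 21 and 8 of 17 of all Vmn2r reads. It lies at chr10:129822372-129831297 on the minus strand.

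The other 3 genes were close to the limit of detection, and of these Vmn2r1 and Vmn2r3 belong to the subfamily that basal neurons transcribe beside another receptor. Vmn2r1 (chr3:63885564-63909380, plus strand) had 1 and 0 reads in wild-type mESCs and 4 and 5 in those labelled *Bmal1*−/−, a ratio of 8.05 with an interval of 1.12 to 353. Vmn2r3, in the same cluster of 7 genes, had 4 and 1 reads against 3 and 3, a ratio of 1.07 with an interval of 0.273 to 4.45. Vmn2r24, which lies on chromosome 6 and outside that subfamily, had 1 and 4 reads against 3 and 5, a ratio of 1.43 with an interval of 0.413 to 5.56. The groups overlapped for Vmn2r3 and Vmn2r24 and did not for Vmn2r1.

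Summed over the family, 21 and 17 reads were counted in wild-type mESCs and 98 and 94 in those labelled *Bmal1*−/−. Vmn2r12 alone made up 62.2% and 59.6% of the family's reads in the latter. Without it, the sums were 20 and 17 reads (95% exact Poisson intervals 12.2 to 30.9 and 9.90 to 27.2) against 37 and 38 reads (26.1 to 51.0 and 26.9 to 52.2). Vmn2r94 and Vmn2r1 held most of that remaining difference.

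Vmn2r12 was the only member with a mean normalized value of at least 10, and so the only one that entered the test over all genes, where it passed the 2-fold and adjusted p thresholds, as did 5.75% of the genes tested in the higher direction. It also passed with edgeR (beside 7.52% of genes in either direction) and with DESeq2 (5.94%).  With the filter lowered to a mean of 1, 7 members were tested and 3 passed (Vmn2r1, Vmn2r12 and Vmn2r94), beside 7.07% of all genes. With no filter limma let none of the 117 pass, beside 1.5% of all genes. On the recovered reads, edgeR without a filter let Vmn2r12 and Vmn2r94 pass, beside 4.59%. Vmn2r1, Vmn2r12 and Vmn2r94 passed these filters only through the group in which they are high, and nothing is read from any of these counts.

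The position of the genes was not used in choosing them. Joined where they lay at most 2 Mb apart, the 117 genes fell into 14 clusters on 8 chromosomes, with 49 genes on chromosome 7, 30 on chromosome 17 and 11 on chromosome 5. Genes with more than 3 reads lay in 5 of the 14 clusters, on chromosomes 3, 5, 6, 10 and 17. None of the 49 genes on chromosome 7 had more than 3 reads in a library. Many of these are close copies with few 75-base stretches that are unique in the genome. The unique share was 0% in Vmn2r36 and Vmn2r46 and 1.42% in Vmn2r47. Others on that chromosome were fully unique, such as Vmn2r65 and Vmn2r76 (100%). Whether reads of the close copies were left unplaced was not tested, so no pattern of position is read from these counts.

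**Figure D2:**
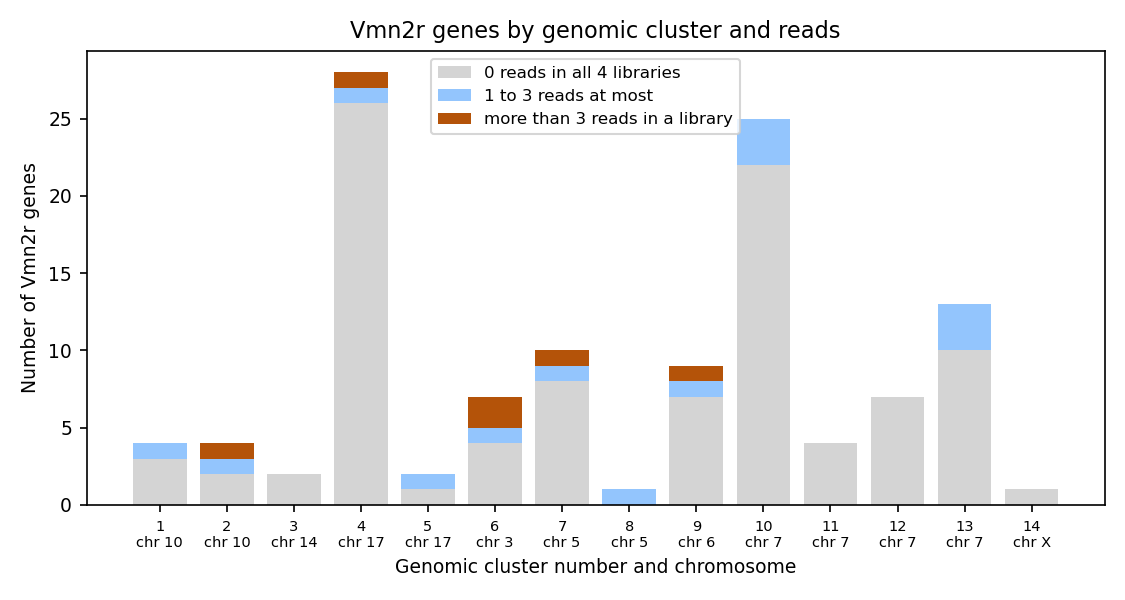
Number of Vmn2r genes in each of the 14 genomic clusters (horizontal axis, cluster number and chromosome), split into genes with 0 reads in all 4 libraries, with at most 1 to 3 reads, and with more than 3 reads in a library. The 6 genes with more than 3 reads are spread over 5 clusters, and the cluster of 10 genes on chromosome 5 holds 1 of them, Vmn2r12. The genes with 0 reads include copies with little unique sequence, many of them on chromosome 7.

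Vmn2r12 stood alone in its own cluster. The cluster, at chr5:109226212-109882406, holds 10 genes, and its summed reads were 1 and 0 in wild-type mESCs and 62 and 56 in those labelled *Bmal1*−/−. The only read that did not belong to Vmn2r12 was 1 read of Vmn2r13 in a library labelled *Bmal1*−/−. All of the other 8 genes, among them the close copies Vmn2r8, Vmn2r10, Vmn2r14 and Vmn2r15, had 0 reads throughout. In protein sequence, translated from the annotated coding sequences, Vmn2r12 (831 residues) was 89.0% identical to Vmn2r13, 86.3% to Vmn2r10, 86.0% to Vmn2r15, 85.5% to Vmn2r14 and 82.2% to Vmn2r8. Its median identity to all members was 45.8%.

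As the aligner's treatment of reads that fit several places is not given in the sources used here, each exon window of 75 bases, the read length, was searched for in the whole mm9 genome. Windows were searched singly, within an exon and for exact matches. The reads were paired, so these shares are not the shares of reads that could be placed. For Vmn2r12, 1739 of 2052 windows (84.7%) occurred at 1 place. All 148 windows of exon 4 and all 50 of exon 5 were unique, as were 704 of 730 in exon 3, while the last exon, which encodes the membrane-spanning part, had 571 of 789. The windows that were not unique matched other places, and 1 window can match several. Most such matches started in Vmn2r11 (154), Vmn2r9 (135), Vmn2r8 (90), outside the exons of the family (80) and in Vmn2r14 (79). These 4 genes had 0 reads in every library, while the reads from the other places are not known. The files hold 1 value per gene, so that the reads of Vmn2r12 could not be assigned to exons.

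Over the family, the share of unique windows ran from 0% to 100% with a median of 83.0%, and 29 genes had less than 50%. The 6 genes with more than 3 reads ran from 61.8% to 100% with a median of 93.5%. Vmn2r94 had 100% unique windows, Vmn2r1 99.4%, Vmn2r24 97.8% and Vmn2r3 89.3%. Vmn2r84 had the lowest share of these, 61.8%. Matches of its 2590 windows to other places, where 1 window can match several, numbered 627 in Vmn2r86, 598 in Vmn2r85 and 587 in Vmn2r87. A further 467 started outside the exons of the family. The reads of Vmn2r84 are therefore the least certain. Of the 29 genes under 50%, most lie on chromosome 7. Among the 29, Vmn2r29 and Vmn2r30 had at most 1 read in a library and the others had 0. Whether reads of these 29 genes were left unplaced was not tested.

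**Figure D3:**
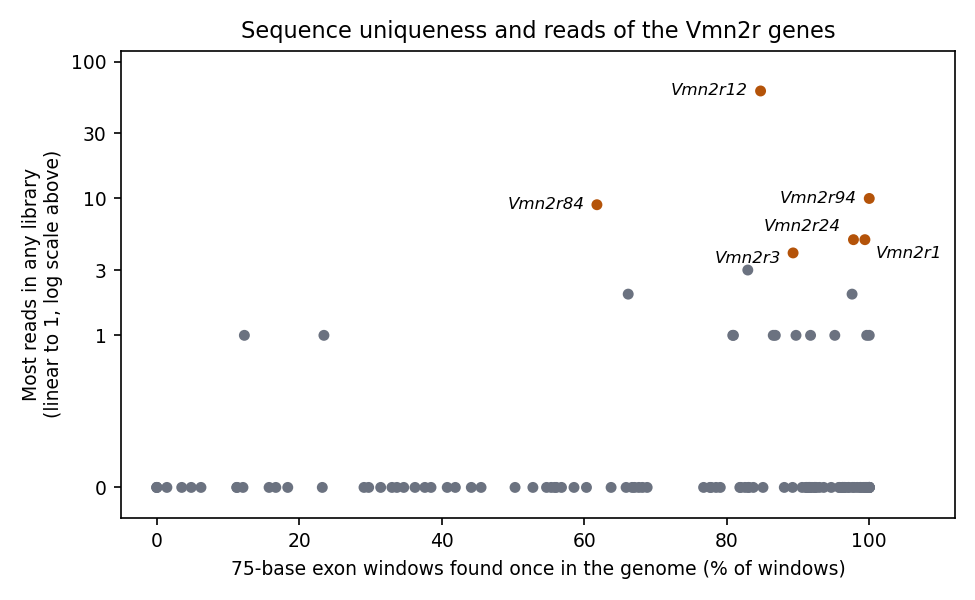
Share of 75-base exon windows that occur once in the mm9 genome (horizontal axis, percent) against the highest read count in any library (vertical axis, linear up to 1 and logarithmic above), 1 point per Vmn2r gene. The 6 named genes with more than 3 reads lie between 61.8% and 100% unique windows, and the genes with 0 reads cover the whole range from 0% to 100%.

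The DNA motif CACGTG, the E-box bound by the complex of Bmal1 and Clock, was searched for in windows from 250 bases before to 50 bases after each gene's annotated start, taken from RefSeq. The motif reads the same on both strands. It was found in 7.15% of 32851 windows of all genes and in 10 of the 116 Vmn2r genes with a window (8.62%). None of the 6 genes with more than 3 reads was among these 10, which says only that these letters are absent from those windows.

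The genes around Vmn2r12 were then examined, since they were not used to choose it. Between Fgfrl1 on one side and Crlf2 on the other lies a stretch of 848 kb (chr5:109135970-109983729) with 13 genes of the table, of which 10 are Vmn2r genes and 3 are not. In this stretch, reads other than those of Vmn2r12 numbered 0 and 0 in wild-type mESCs and 1 and 0 in those labelled *Bmal1*−/−. Within 500 kb of Vmn2r12, 7 genes outside the family passed the filter and were tested, and 1 of them, Slc26a1, passed both thresholds, beside 7.21% of all genes tested.

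Slc26a1, which encodes a sulfate and oxalate transporter, stood at normalized values of 22.1 and 24.4 in wild-type mESCs and of 128 and 122 in those labelled *Bmal1*−/−. Its log2 fold change was 2.38 (SE 0.19, adjusted p = 3.1e-09 by limma), and the groups were far apart. Slc26a1 (chr5:109098897-109104588, minus strand) lies opposite to Idua, the gene of a lysosomal iduronidase on the plus strand. Idua was 227 and 221 against 329 and 317, a log2 fold change of 0.53 (SE 0.09, adjusted p = 8.5e-05), under 2-fold. The library kit keeps the strand, but the counting setting is not given in the sources used here, and reads of this pair may be mixed.

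The other neighbours tested differed by less than 2-fold. The nearest gene tested, Fgfrl1, a receptor-like protein of the fibroblast growth factor receptor family, had values of 284 and 296 against 335 and 292, with overlapping groups (log2 fold change 0.11, adjusted p = 0.36). On the other side, Crlf2, a cytokine receptor subunit, had 277 and 271 against 229 and 213 and fell by 0.31 on the log2 scale (adjusted p = 0.012, but 0.12 without *Bmal1*−/− replicate 2, 0.18 with DESeq2 and 0.11 with no filter). Dgkq, a diacylglycerol kinase, rose by 0.21 (adjusted p = 0.014, but 0.053 to 0.082 without wild-type replicate 2, without either *Bmal1*−/− replicate, with DESeq2, with limma without trend and with no filter), while Gak, a kinase of clathrin uncoating, and Tmem175, a lysosomal channel, had log2 fold changes of 0.03 and -0.15 and did not pass the test. Within 1 Mb, 21 genes were tested and Slc26a1 was again the only one past both thresholds.

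**Figure D4:**
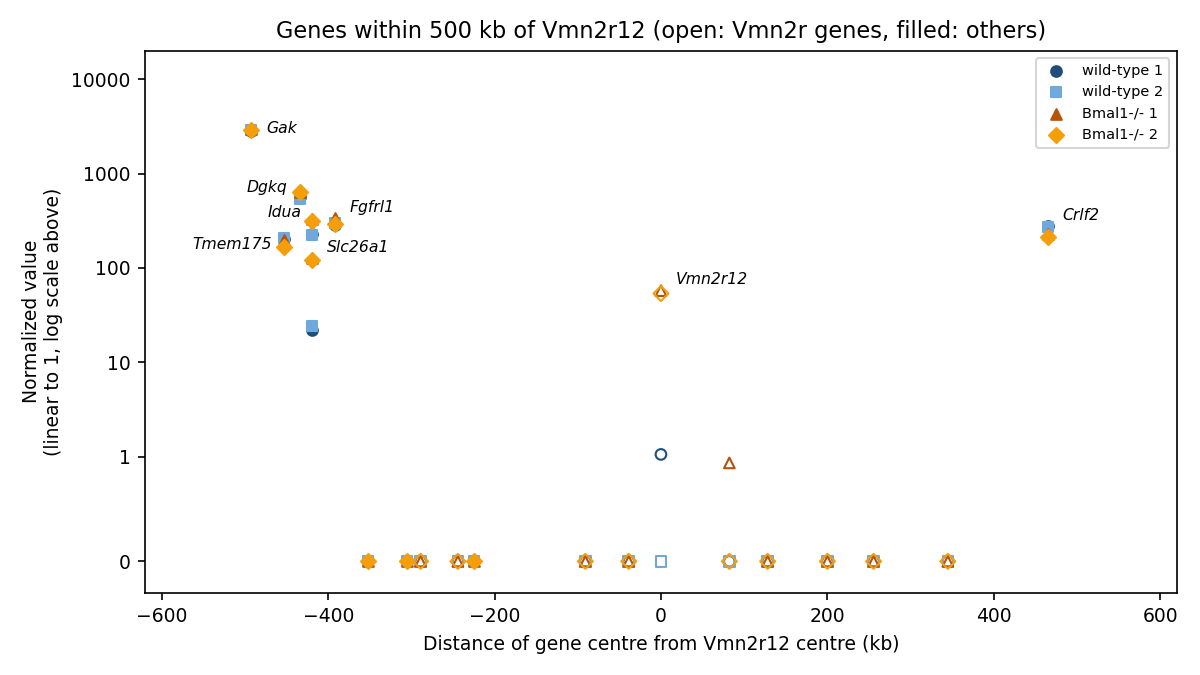
Normalized values (vertical axis, linear up to 1 and logarithmic above) of the genes within 500 kb of Vmn2r12 in each library, against the distance between gene centres in kb. Open symbols are Vmn2r genes and filled symbols are other genes, and the genes between Fgfrl1 and Crlf2 lie at or near 0 apart from Vmn2r12 at 57.3 and 53.4.

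The genes with which these receptors work in vomeronasal neurons were taken from a list of 25 signalling genes. Of these, 12 passed the filter, and at an adjusted p under 0.05 by limma 5 rose and 4 fell relative to wild-type, beside 24.0% of all genes tested that rose and 28.6% that fell at that threshold. The median log2 fold change was -0.01, against -0.03 over all genes tested, and 2 of the 12 genes, H2-M10.4 and Ano1, passed both thresholds, beside 7.21% of all genes tested.

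H2-M10.4 is one of the nonclassical class I molecules that basal vomeronasal neurons express together with type 2 receptors. It had values of 14.7 and 19.1 in wild-type mESCs and of 281 and 251 in those labelled *Bmal1*−/−, with a log2 fold change of 3.90 (SE 0.18, adjusted p = 5.6e-13). The 4 values fell into clearly separate pairs. The gene lies at chr17:36595862-36599279 on the minus strand, overlaps no other gene, and had 948 of 966 windows of 75 bases (98.1%) at 1 place in the genome. The other 7 H2-M genes of the list summed to normalized values of 1.05 and 0 against 1.88 and 2.86, at the limit of detection. B2m, the light chain with which such molecules assemble, had 228 and 268 against 323 and 359 (log2 fold change 0.46, adjusted p = 0.00060).

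Ano1, a calcium-activated chloride channel, rose from 53.7 and 55.2 to 130 and 137 (log2 fold change 1.28, SE 0.16, adjusted p = 1.0e-06). Itpr3, an inositol trisphosphate receptor, rose by 0.42 and Calr4, a calreticulin, by 0.73 on the log2 scale (adjusted p = 2.0e-07 and 0.019). Trpc2, the channel of the vomeronasal cascade, had 1313 and 1319 against 1171 and 1213 and fell by 0.14 (adjusted p = 0.029). Gnai2, the G protein subunit of the apical neurons, fell by 0.43, Gnb2 by 0.31 and Gnb1 by 0.14, the latter pair being G protein beta subunits. Prkcd, Plcb4 and Kirrel2 did not pass the test, with log2 fold changes of 0.00, -0.02 and -0.12.

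Other genes of vomeronasal neurons differed in level and direction. Gnao1, which encodes Gαo, had 7 and 7 reads in wild-type mESCs and 9 and 9 in those labelled *Bmal1*−/−, and Gng8, a G protein gamma subunit of these neurons, had 2 and 3 against 2 and 2. Omp, the marker of mature olfactory and vomeronasal neurons, had values of 66.4 and 42.5 against 38.5 and 34.3 and did not pass the test (adjusted p = 0.063). Meis2, a transcription factor, and Cnga4, a channel subunit, rose by 0.58 and 0.29 on the log2 scale (adjusted p = 3.0e-05 and 0.022). Over the 9 marker genes of vomeronasal sensory neurons, all of which had a read, the summed value was 9617 to 9989 in wild-type mESCs and 7773 to 7778 in those labelled *Bmal1*−/−, most of it from Gnai2.

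Markers of other cell states moved in the same libraries as Vmn2r12. In a list of genes of two-cell-like cells, rare cells of mESC cultures that transcribe genes of the early embryo, 12 genes were in the table, 11 were tested, and all 11 were higher past both thresholds, beside 5.75% of all genes tested, with a median log2 fold change of 3.46. Among the 11, Tdpoz1, Tdpoz3, Tdpoz4 and Spz1 reached the filter only through the libraries labelled *Bmal1*−/− (wild-type means 3.18 to 8.47). The summed values of the 12 genes came to 291 and 359 in wild-type mESCs and 4044 and 3881 in those labelled *Bmal1*−/−, and none was at 0. Zscan4c rose from 43.2 and 60.5 to 730 and 709 and Zfp352 from 27.4 and 19.1 to 279 and 247 (log2 fold changes 3.79 and 3.46). Several of these genes belong to families of close copies, among which reads may be split. Summed values of 6 primitive endoderm markers were 268 and 284 against 599 and 561, those of 5 fibroblast markers 144 and 156 against 314 and 331, and those of 6 neural markers 3947 and 3646 against 2286 and 2135, with none of these markers at 0. A single gene carried most of each of these 3 differences: Col4a1 82.5%, Pdgfrb 81.9% and Tubb3 95.1%. Pdgfra, Col1a1, Nes, Sox11 and Neurog1 of these lists did not pass the test, and Neurog1 had a log2 fold change of 1.15, opposite in sign to the neural sum (adjusted p = 0.055). The part of any of these cell types in the reads of Vmn2r12 was not tested.

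Compared with the other chemoreceptor families, the type 2 receptors also had few genes with reads. More than 3 reads in a library were found for 6 of 206 type 1 vomeronasal receptors (2.91%), for 27 of 1098 odorant receptors (2.46%) and for 3 of 61 Vmn2r pseudogenes (4.92%), against 5.13% of the type 2 receptors. None of 15 trace amine receptors had a read. The summed reads of the type 1 receptors were 84 and 97 against 129 and 142, of which Vmn1r90 made up 75 and 86 against 94 and 100, and those of the odorant receptors 151 and 135 against 299 and 311. These shares were not tested against each other.

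Few genes of these families were high enough to be tested: 1 type 1 receptor, 4 odorant receptors and 1 pseudogene. Of these, 1 odorant receptor and the pseudogene passed both thresholds, beside 7.21% of all genes tested. Both reached the mean value of 10 only through the libraries labelled *Bmal1*−/− (wild-type means 2.64 and 8.45). Nothing is read from this count. This pseudogene, Vmn2r-ps106, is named so by its symbol but is annotated as protein coding. Olfr376 had values of 4.21 and 1.06 in wild-type mESCs and of 56.4 and 48.6 in those labelled *Bmal1*−/− (log2 fold change 4.02, SE 0.44, adjusted p = 1.9e-07, but 0.11 with no filter). Its log2 fold change became 2.31 with a pseudocount of 10, 4.69 when wild-type replicate 1 was left out and 3.36 when replicate 2 was. Vmn2r-ps106 had 12.6 and 4.25 against 27.2 and 21.9 (log2 fold change 1.59, SE 0.43, adjusted p = 0.0037), but only 17.9% of its exon windows were unique, and its log2 fold change was 0.90, under 2-fold, without wild-type replicate 2, 2.28 without wild-type replicate 1, and 1.44 with an adjusted p of 0.056 without *Bmal1*−/− replicate 1. Vmn1r90, the type 1 receptor with most reads, did not pass (log2 fold change 0.11, adjusted p = 0.58).

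**Figure D5:**
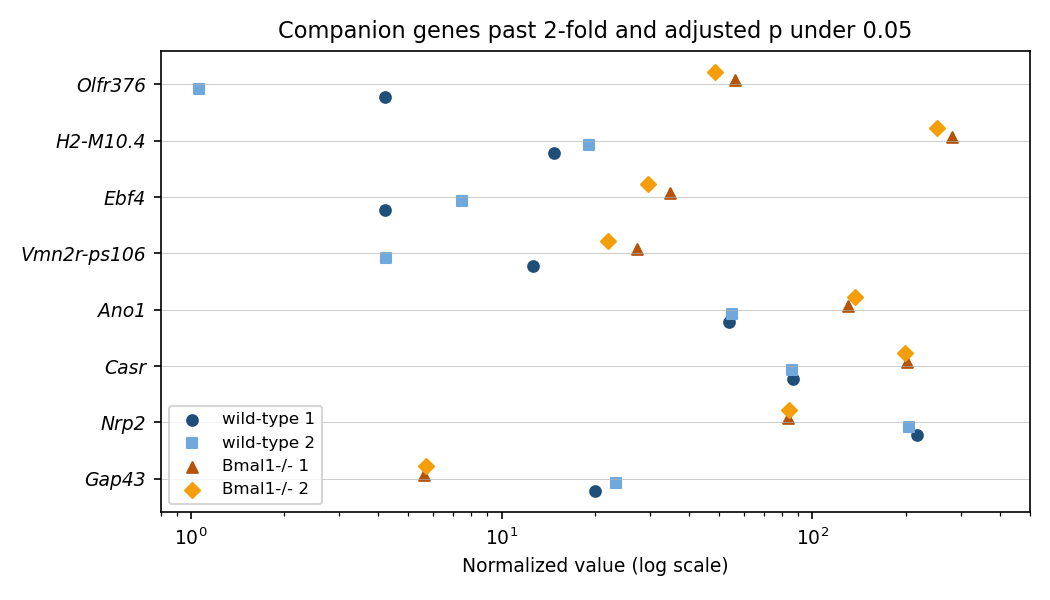
Normalized values (horizontal axis, log scale) of the 8 companion genes past both thresholds, 1 point per library with a small vertical offset. In 6 genes both libraries labelled *Bmal1*−/− lie above both wild-type libraries, and in Nrp2 and Gap43 they lie below.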

How the data were processed

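mRNA-seq was done on 4 libraries, grouped by their titles into 2 of wild-type and 2 of *Bmal1*−/− mESCs. The authors aligned 75-base paired reads to mm9 with STAR 2.5.2b and normalized by trimmed mean of M values. The deposited values are a normalized signal per gene, not counts. Each was divided by the smallest value above 0 of its column, which gave whole reads for 100% of values (tolerance 0.01). The counter and its annotation are not given in the sources used here. Symbols came from a table of gene names (37310 of 37310 identifiers matched), and positions and coding sequences from GENCODE vM1 on mm9.

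Differences were tested with limma 3.58.1 (R 4.3.3) on log2(value + 1) over genes whose mean value reached 10, with Benjamini-Hochberg adjustment. With 2 replicates a group, limma moderated the spread of each gene toward a trend over all genes tested. The p-values therefore rest on that shared spread between these libraries as well as on the gene's own. Intervals of read ratios are exact at 95% and cover counting error only. The alternatives included edgeR 4.0.16 and DESeq2 1.42.0 on the recovered reads. The limma fit was tested on simulated counts, and the other steps were not.

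Described were members with a mean of at least 10 or past both thresholds, the member with most reads of each cluster with a detected member, the 5 closest paralogs of Vmn2r12, its neighbours tested within 500 kb, companion genes past both thresholds, the signalling genes tested, and Arntl. Vmn2r1, other low members, Omp, Gnao1, Gng8 and Vmn1r90 were added after their values were seen. The members and gene lists were chosen with earlier results of these data known.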

Additional observations from a re-analysis of the deposited data

How the results depend on the processing

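Vmn2r12 was higher in the libraries labelled *Bmal1*−/− under all 16 alternatives, by a log2 difference between 2.64 (pseudocount 10) and 6.74 (DESeq2). This contrast chose the gene and every alternative uses the same libraries, so the range describes the difference and is no support for it. With no filter on low values the difference was the same 5.30 but did not pass the threshold over all genes. The number of members past the thresholds was 1. It became 3 with a mean of at least 1 and 2 with edgeR without a filter, where low members entered the test. Under limma with no filter it became 0, as Vmn2r12 missed the adjusted p threshold, and why was not tested. Members detected numbered 6, but 2 at a minimum of 10 reads and 20 at a minimum of 1 read. Over all genes, 560 passed with no filter against 1046. Companion genes past the thresholds numbered 16 of 96 tested with a mean of at least 1, beside 7.07% of all genes tested. In the main test they numbered 8 of 41, beside 7.21%. Some of these genes passed the filter only through the group in which they are high. Under quantile normalization 590 genes were higher and 426 lower (58.1% higher, against 79.8%). Slc26a1, H2-M10.4, Ano1, Casr and Nrp2 passed both thresholds under all 16 alternatives, and Olfr376, Ebf4 and Gap43 under all but the one with no filter. Vmn2r-ps106 missed one or both thresholds under 7 of them. Neighbours past the thresholds numbered 1 throughout, and no gene was tested within 250 kb.

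Leaving out single libraries gave 956 to 1115 genes past the thresholds, 1 member, 1 neighbour, 7 to 10 companion genes and a difference of 4.78 to 5.82 for Vmn2r12. The lone library of a group is then assumed to vary like the other group. With the replicate number as a block, 1056 genes passed and the difference of Vmn2r12 was 5.30. The labels number the replicates of both groups as experiments but do not say that a number marks a shared day or batch, and the replicate differences of the groups correlated with r = -0.02 across 14510 genes, so that the pairing was not used.

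A count of 0 does not show that a receptor is silent at this depth, and 29 receptors have mostly ambiguous sequence. Only 1 knockout clone and 2 libraries per group were available.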

Other observations

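The list of olfactory and vomeronasal neurons had 13 genes tested. At an adjusted p under 0.05 by limma, 6 were higher and 4 lower, beside 24.0% and 28.6% of all genes tested. Past both thresholds, 1 was higher and 2 were lower, beside 5.75% and 1.45% of all genes tested. Genes under 2-fold went both ways, with Adcy3 at 0.62, Gnal at 0.55, Ebf1 at -0.27 and Ldb1 at -0.32 on the log2 scale. Ebf4, a transcription factor of olfactory neurons, had 4.21 and 7.44 against 34.8 and 29.6 (log2 fold change 2.32, adjusted p = 3.3e-05, but 0.12 with no filter, and 1.42 with a pseudocount of 10). Casr, the calcium-sensing receptor and a family C relative of the Vmn2r receptors, had 86.4 and 86.0 against 202 and 198 (log2 fold change 1.21, adjusted p = 1.5e-07), while the other 9 family C receptors tested stayed under 2-fold. Nrp2, a semaphorin receptor that guides vomeronasal axons, had 217 and 205 against 83.6 and 83.9 (log2 fold change -1.32, adjusted p = 4.1e-08), and Gap43, a growth cone protein of immature neurons, had a mean of 21.7 ± 2.37 against 5.68 ± 0.06 (SD, n = 2 each, log2 fold change -1.76, adjusted p = 0.00088, but 0.14 with no filter, and -1.01 with a pseudocount of 10). In all, 8 of 41 companion genes tested passed both thresholds, 6 of them higher, beside 7.21% of all genes tested. Among them, Ebf4, Gap43, Olfr376 and Vmn2r-ps106 reached the mean value of 10 only through the group in which they are high. Nothing is read from the count.

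With no more than 1 wild-type read in all and at least 10 reads in each library labelled *Bmal1*−/−, thresholds chosen after the values had been seen, 30 of the 37310 genes of the table were found, 2 of them among the 1098 odorant receptors. Olfr787 had 0 and 0 reads in wild-type mESCs and 16 and 14 in those labelled *Bmal1*−/−, and Olfr881 had 0 and 1 against 14 and 21.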
